A study of Danio rerio with 31 samples.

Results

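Cadherins and protocadherins are cell surface proteins whose extracellular cadherin repeats bind calcium and hold neighbouring cells together. The genes described here are the 40 of 15648 genes on a zebrafish brain expression array whose Ensembl symbol begins with cdh, pcdh, celsr, dchs, fat1, fat3, fat4 or clstn, in capitals or not. They fall into 12 families: 3 classical type I cadherins, 6 type II cadherins, 1 cadherin-related receptor, 6 other cadherins, 4 delta-1 and 5 delta-2 protocadherins, 2 clustered protocadherins, 3 other protocadherins, 4 celsr cadherins, 2 dachsous cadherins, 1 fat cadherin and 3 calsyntenins. Symbols are printed as the annotation writes them; 23 are in capitals, as for human genes, and 3 symbols (PCDH1, PCDH18 and CLSTN2) are each carried by 2 genes, which are told apart by their Ensembl identifiers.

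The study measured brain RNA of adult zebrafish, all aged 1 year and labelled as controls, on 31 arrays of individual samples, 15 of telencephalon and 16 of midbrain. The domesticated populations were Scientific Hatchery, with 3 telencephalon arrays (1 male, 2 females) and 4 midbrain arrays (1 male, 3 females), and Transgenic Mosaic 1, with 4 arrays in each region. The wild populations were Nadia and Pargana North, again with 4 arrays in each region. Every group of 4 other than that of Scientific Hatchery held 2 males and 2 females. Individual arrays are named by T for telencephalon or M for midbrain and the number in their label, and all values are deposited log2 intensities.

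As background, classical cadherins bind like to like and are tied to actin through catenins, and the mix of type I and type II cadherins on neurons helps to sort them into nuclei and layers. Delta and clustered protocadherins act in neurite growth, self-recognition and synapse formation. The very large celsr, dachsous and fat cadherins carry planar polarity signals between cells, and calsyntenins sit mainly in synaptic membranes.

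The region labels were checked against marker genes: 12 of 14 telencephalon markers were higher and 1 was lower in telencephalon, and 16 of 16 midbrain markers were lower there. Markers of other tissues and cells also differed between the regions. Over all genes 21.6% were higher and 22.1% lower in telencephalon. Of 14 cerebellum markers 10 were lower in telencephalon and 0 higher, their mean running from 9.54 to 10.09 over telencephalon arrays and from 10.74 to 11.45 over midbrain arrays. Of 7 oligodendrocyte markers 5 were lower and 0 higher (9.62 to 11.01 against 11.53 to 12.08), and of 11 microglia markers 5 were lower and 1 higher (9.50 to 10.05 against 9.84 to 10.73). Of 10 pituitary markers 4 were lower and 1 higher, and of 28 retina, lens and pineal markers 1 was lower and 2 were higher. The part of these markers in the region differences below was not tested; none of them was called between domesticated and wild fish or between the sexes. The arrays' medians ran from 9.57 to 9.74, and each array's mean correlation with the others of its region from 0.959 to 0.975 in telencephalon and from 0.972 to 0.98 in midbrain, the lowest being T140, T109 and T99. DIO2, a deiodinase gene, was chosen as a check of sex after its values were seen. It read 10.79 on T21 and 11.66 on M21, both labelled as Pargana North females. These values lay above every other female (9.09 to 9.80 in telencephalon and 9.85 to 10.65 in midbrain). Males read 11.04 to 11.83 and 11.62 to 12.46, so that the T21 value lay below every male and the M21 value within the male range. DIO2 was picked by the sex labels of these same data, so its values raise a doubt about these labels but cannot settle it. No source says that T21 and M21 come from the same fish. Results were also computed without both arrays.

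Between the regions, 19 of the 40 genes (47.5%) differed at an adjusted p under 0.05 in limma, a linear model over all genes, against 43.6% of all genes tested. Higher in telencephalon than in midbrain were 5 members (12.5%, against 21.6% of all genes), and lower were 14 (35%, against 22.1%). With the arrays shifted to the same median the members split into 9 higher and 13 lower, and with quantile normalization into 7 and 13. A difference of 2-fold or more was reached by 3 members (7.5%, against 8.07% of all genes): dchs1a, higher in telencephalon, and FAT1 and CLSTN2 (ENSDARG00000060638), lower there. The same 3 were the only members whose values in the regions did not overlap on any array, which was so for 6.13% of all genes. The median difference was -0.02 over the members and 0.01 over all genes. In bulk tissue, fewer cells of a type and less RNA per cell cannot be told apart.

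**Figure D1:**
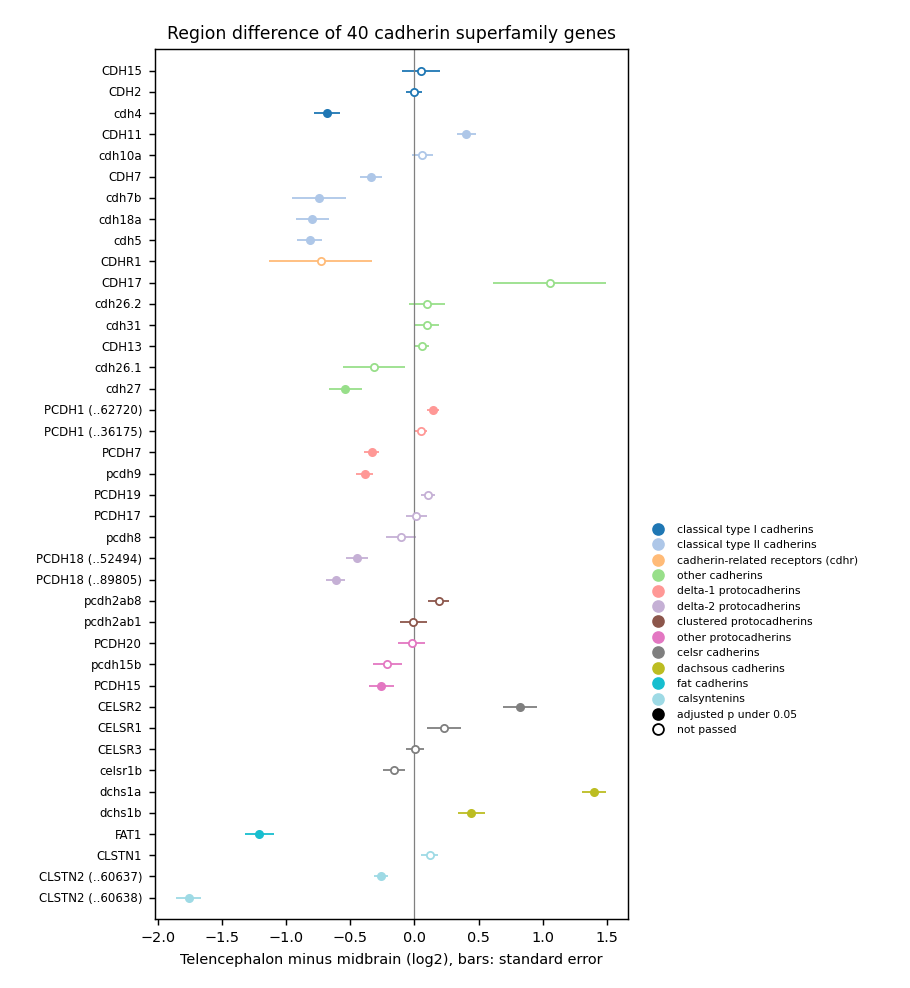
Difference between telencephalon and midbrain (log2, horizontal axis) for each of the 40 genes, grouped and coloured by family, with bars for the standard error; filled points passed an adjusted p of 0.05. The dachsous genes lie to the right of 0, FAT1 and 1 of the CLSTN2 genes lie farthest to the left, and CDHR1 and CDH17 have the widest bars.

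Among the large polarity cadherins, dchs1a and dchs1b encode dachsous proteins, which bind fat cadherins on the next cell. dchs1a read 8.64 at the lowest, 9.55 at the median and 9.90 at the highest in telencephalon, against 7.56, 8.20 and 8.41 in midbrain. Every telencephalon array lay above every midbrain array. The difference was 1.40 (SE 0.09, n = 15 and 16, adjusted p = 5.93e-12), or 2.64-fold, and within populations it ran from 1.35 in Nadia and 1.38 in Pargana North to 1.41 in Scientific Hatchery and 1.47 in Transgenic Mosaic 1. Its paralog dchs1b spanned 10.44 to 11.44 in telencephalon and 9.93 to 10.82 in midbrain and was higher by 0.44 (SE 0.10, adjusted p = 0.00126), with 0.84 in Pargana North and 0.22 to 0.39 in the other populations.

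FAT1, a giant cadherin that acts on actin at cell edges, went the other way. It read 9.01, 9.90 and 10.35 (lowest, median, highest) in telencephalon, against 10.56, 10.92 and 11.48 in midbrain. No telencephalon array reached the lowest midbrain array. The difference was -1.21 (SE 0.11, adjusted p = 1.9e-09), a 2.31-fold lower value in telencephalon. Within populations it was -1.48 in Scientific Hatchery, -1.31 in Transgenic Mosaic 1, -1.37 in Nadia and -0.67 in Pargana North, and without Pargana North it was -1.39. FAT2, a related gene of cerebellar granule cells in mammals that the symbol rule does not take, averaged 6.01 in telencephalon and 12.17 in midbrain, a difference of -6.24 (SE 0.12).

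Of the celsr genes, whose proteins cross the membrane 7 times and pass polarity signals between cells, 1 of 4 passed (all genes: 43.6%). CELSR2, which acts in cilia of the ependyma in mammals, read 11.48, 12.67 and 13.15 in telencephalon, against 11.16, 11.77 and 12.13 in midbrain. The telencephalon arrays lay above the highest midbrain array apart from the male T99 of Transgenic Mosaic 1, which lay among the midbrain values. CELSR2 rose by 0.82 (SE 0.13, adjusted p = 1.23e-05), and by 0.92 without that array. CELSR1 (0.23, SE 0.13), celsr1b (-0.16, SE 0.08) and CELSR3 (0.00, SE 0.07) did not pass, and T99 was also the lowest telencephalon array for CELSR1, at 8.31, and for CELSR3, at 11.96. T99 also had the highest telencephalon means of oligodendrocyte markers, 11.01 with the next array at 10.20, and of cerebellum markers, 10.09 with the next at 9.91; their part in its celsr values was not tested.

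**Figure D2:**
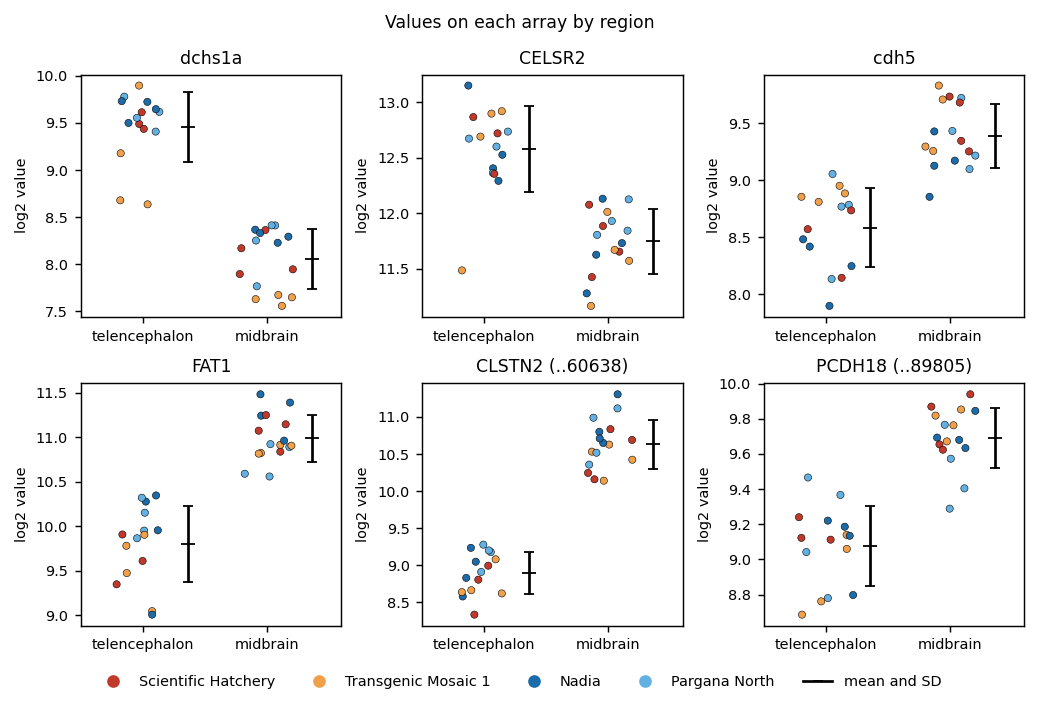
Values on every array (log2, vertical axes) for dchs1a, CELSR2, cdh5, FAT1, CLSTN2 (ENSDARG00000060638) and PCDH18 (ENSDARG00000089805), with 15 telencephalon arrays left of 16 midbrain arrays in each panel, coloured by population, and the mean with its SD beside them. The regions separate fully for dchs1a, FAT1 and CLSTN2, and 1 low telencephalon array of Transgenic Mosaic 1 stands out for CELSR2.

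Calsyntenins tie synaptic membranes to kinesin transport and to amyloid precursor protein adaptors. CLSTN2 (ENSDARG00000060638) read 8.34, 8.91 and 9.28 in telencephalon, against 10.14, 10.64 and 11.31 in midbrain. The regions did not overlap, and the difference of -1.76 (SE 0.10, adjusted p = 1.41e-13) was 3.38-fold and the largest among the 40 genes. It was -1.60 to -1.94 in each of the 4 populations. The second gene with the symbol CLSTN2 (ENSDARG00000060637) fell by 0.26 (SE 0.05, adjusted p = 0.00026), with 12.54 to 12.96 in telencephalon and 12.85 to 13.24 in midbrain. CLSTN1 spanned 14.27 to 14.79 and 13.96 to 14.57 and did not pass (0.12, SE 0.06).

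Type II cadherins, which many brain nuclei express in their own combinations, had 4 of 6 members lower and 1 higher in telencephalon. Over all genes the shares were 22.1% lower and 21.6% higher. The exception to the direction was CDH11, a cadherin of mesenchymal cells and of neurons, at 11.40, 11.73 and 12.05 in telencephalon and 10.96, 11.30 and 11.60 in midbrain (0.40, SE 0.07, adjusted p = 5.65e-05). cdh18a read 7.23, 8.45 and 9.21 in telencephalon, against 8.63, 9.29 and 9.49 in midbrain, and fell by 0.80 (SE 0.13, adjusted p = 1.98e-05). The difference for cdh18a was -0.95 in Scientific Hatchery, -1.11 in Transgenic Mosaic 1 and -1.05 in Nadia but -0.07 in Pargana North, whose telencephalon arrays had the highest mean of the 4 populations, 8.88, and spanned 8.74 to 9.21. A test of that inequality gave an unadjusted p of 0.027, which did not pass over all genes (limma adjusted p = 1). In midbrain the lowest cdh18a value, 8.63, was on a Pargana North array, and without that population the lowest was 8.84. The paralogs CDH7 and cdh7b both fell, CDH7 by 0.34 (SE 0.08, adjusted p = 0.00174) and cdh7b by 0.74 (SE 0.21, adjusted p = 0.00573). cdh7b was the more variable of them, at 5.44 to 7.85 in telencephalon and 6.65 to 8.46 in midbrain, and without Transgenic Mosaic 1 it no longer passed (adjusted p = 0.108), although its difference was -0.57 to -0.92 over all 47 other settings. cdh10a did not pass (0.06, SE 0.08).

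cdh5, the VE-cadherin of endothelial junctions, was grouped with the type II cadherins. It read 7.90, 8.74 and 9.05 in telencephalon, against 8.85, 9.32 and 9.83 in midbrain. The regions overlapped between 8.85 and 9.05, and cdh5 fell by 0.82 (SE 0.10, adjusted p = 2e-07), with -0.65 to -1.06 in the 4 populations. Of 10 other endothelial markers 7 were also lower in telencephalon (all genes: 22.1%) and 0 were higher (all genes: 21.6%). The lower ones included SOX7 (-0.92), KDR (-0.84), TIE1 (-0.79) and sox18 (-0.77). The mean of those 10 ran from 8.65 to 9.28 over telencephalon arrays and from 9.20 to 9.90 over midbrain arrays; its part in the cdh5 difference was not tested.

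Of the type I cadherins, CDH2 (N-cadherin, the common adhesion molecule of neural tissue) had nearly the same range in both regions, 13.66 to 14.10 in telencephalon and 13.57 to 14.11 in midbrain, with a difference of -0.0036 (SE 0.06). cdh4, the retinal or R-cadherin, read 8.68, 9.18 and 9.68 in telencephalon, against 9.34, 9.94 and 10.33 in midbrain, and fell by 0.68 (SE 0.10, adjusted p = 5.73e-06). The muscle cadherin CDH15 (0.05, SE 0.15) did not pass.

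The delta protocadherins passed in 5 of 9 cases (all genes: 43.6%), 4 of them lower and 1 higher in telencephalon. Both genes with the symbol PCDH18 fell: ENSDARG00000089805 by 0.61 (SE 0.07, adjusted p = 1.77e-07) and ENSDARG00000052494 by 0.45 (SE 0.09, adjusted p = 0.000147). ENSDARG00000089805 spanned 8.69 to 9.47 in telencephalon and 9.29 to 9.94 in midbrain. The delta-1 genes pcdh9 and PCDH7 fell by 0.39 (SE 0.06, adjusted p = 1.51e-05) and 0.33 (SE 0.06, adjusted p = 2.35e-05). PCDH1 (ENSDARG00000062720) was higher by 0.14 (SE 0.05, adjusted p = 0.0189), the smallest difference that passed, while its namesake ENSDARG00000036175 differed by 0.05 (SE 0.05). That call was lost in 4 of 47 other settings (adjusted p up to 0.102): without Nadia, Pargana North or Scientific Hatchery, and with the genes of a symbol averaged. Among the other delta-2 genes, which act in neuronal migration and axon growth, PCDH19 (0.11), PCDH17 (0.01) and pcdh8 (-0.10) did not pass.

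Neither clustered protocadherin passed, pcdh2ab8 at 0.19 (SE 0.08, adjusted p = 0.0577) and pcdh2ab1 at -0.01 (SE 0.11). PCDH15, a tip link protein of sensory hair cells, fell by 0.26 (SE 0.10, adjusted p = 0.0349); its differences were -0.57 in Pargana North and 0.03 in Scientific Hatchery, making it the 1 called member of 19 whose sign was not shared by all 4 populations. That call was lost in 17 of 47 other settings (adjusted p up to 0.29): in 11 of 31 fits that left out 1 array, with the arrays at the same median, with quantile normalization, with the number in the labels as a fixed replicate block, and without Nadia, Pargana North or Transgenic Mosaic 1. Its paralog pcdh15b (-0.21, SE 0.11) and PCDH20 (-0.02, SE 0.10) did not pass. The male Pargana North T140 was the lowest telencephalon array for PCDH15, at 9.25, for pcdh15b, at 10.04, and for PCDH20, celsr1b and dchs1b.

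Of the 6 remaining cadherins, cdh27 alone passed (all genes: 43.6%), at -0.54 (SE 0.13, adjusted p = 0.00127). Its values by population are given below with the population comparison. cdh26.2 (0.10), cdh31 (0.10) and cdh26.1 (-0.32) did not pass, nor did CDH13, or T-cadherin, which is held in the membrane by a lipid anchor (0.06, SE 0.06). CDH17 and CDHR1 each had 1 array far from all others.

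CDH17, known in mammals from liver and intestine, read 11.15 on the midbrain array of the Scientific Hatchery female M119, against 4.12 to 5.65 (median 4.86) on the other 15 midbrain arrays. M119 lay 5.50 log2 units above the next midbrain array, whose value is that of a dim gene, and CDH17 was the 1 gene of 15648 more than 2 log2 units above all other midbrain arrays on M119. On telencephalon arrays CDH17 ran from 5.29 to 7.54. With M119 the region difference was 1.05 (SE 0.44, adjusted p = 0.0576), and without it 1.43 (SE 0.18, adjusted p = 7.2e-07). M119 was left out after its CDH17 value was seen.

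CDHR1, a cadherin of photoreceptor outer segments, read 10.43 on the telencephalon array of the Transgenic Mosaic 1 female T109, against 4.32 to 5.76 (median 4.90) on the other 14. On that array 76 genes lay more than 2 log2 units above all other telencephalon arrays. The mean of 28 retina, lens and pineal markers was also highest on T109, at 8.17, over a telencephalon range that began at 5.81 and had a median of 6.04. In midbrain CDHR1 was highest on M21 of Pargana North (7.88) and M98 of Nadia (7.08), where the marker mean was 7.15 and 7.77 against a midbrain median of 5.92, while T106 of Nadia had a marker mean of 7.11 and CDHR1 at 5.25. The part of these markers in the CDHR1 values was not tested. With T109 the region difference of CDHR1 was -0.73 (SE 0.40, adjusted p = 0.152), and without it -1.06 (SE 0.21, adjusted p = 0.00018). M21 and M98, the midbrain arrays highest in CDHR1, were kept in both fits. T109 was left out after its values were seen.

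**Figure D3:**
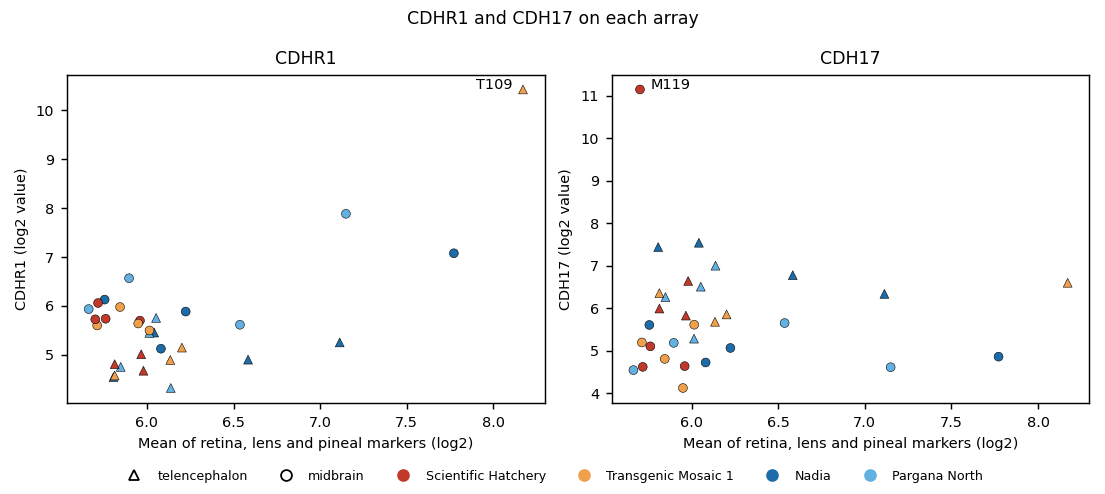
CDHR1 (left) and CDH17 (right) on each of the 31 arrays (log2, vertical axes) against the mean of 28 retina, lens and pineal markers (log2, horizontal axes); triangles are telencephalon and circles midbrain arrays, coloured by population. T109 is highest on both axes for CDHR1, and M119 stands alone for CDH17 at a low marker mean.

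Genes of proteins that work with cadherins split between the directions: of 39 partners, 13 were higher and 14 lower in telencephalon. Over all genes 21.6% were higher and 22.1% lower. Partners of the planar polarity pathway went both ways. Higher were PRICKLE2 (ENSDARG00000037593, 1.39, SE 0.09, and ENSDARG00000020982, 1.08, SE 0.07) and FZD3 (ENSDARG00000058692, 1.01, SE 0.12), the last being a Wnt receptor that works with celsr proteins in axon guidance, and PRICKLE3 (0.51, SE 0.21). Lower were PRICKLE1 (-0.77, SE 0.08), dvl2 (-0.41, SE 0.10) and VANGL2 (-0.36, SE 0.09), while VANGL1 (-0.11, SE 0.07) and the second gene with the symbol FZD3 (ENSDARG00000021664, 0.11, SE 0.08) did not pass. Among the other partners, lower were PLEKHA7 (ENSDARG00000062220, -1.43, SE 0.07), an adaptor of adherens junctions, the nectin gene NECTIN1 (-1.21, SE 0.14), and apba2a (-1.06, SE 0.15), whose protein family links calsyntenins to amyloid precursor protein. CTNNB1, encoding the beta-catenin that binds classical cadherins, averaged 12.44 in telencephalon and 13.41 in midbrain and differed by -0.98 (SE 0.12). The remaining called partners went both ways. Those higher in telencephalon included lix1l (0.50, SE 0.16), the nectin gene nectin3b (0.48, SE 0.07), FJX1 (0.48, SE 0.13) and the catenin gene ctnnd2b (0.31, SE 0.07). Those lower included RET (-0.76, SE 0.16) and both genes with the symbol JUP (-0.58, SE 0.07, and -0.47, SE 0.11).

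Domesticated and wild populations were then compared within each region. The domesticated side rests on Scientific Hatchery and Transgenic Mosaic 1, the wild side on Nadia and Pargana North. The SE and p values come from the spread of arrays within populations. Domestication therefore cannot be told apart from other differences between these populations. In telencephalon 1 member, PCDH20, passed (2.5% of members, against 1.91% of all genes). PCDH20 is a protocadherin outside the clusters. It read 9.41, 8.90 and 9.30 in Scientific Hatchery and 8.90, 8.86, 9.20 and 8.69 in Transgenic Mosaic 1, against 8.34, 8.21, 8.08 and 8.19 in Nadia and 8.14, 8.31, 7.46 and 8.08 in Pargana North. All 7 domesticated arrays lay above all 8 wild arrays, a separation that 0.185% of all genes showed. PCDH20 was higher in domesticated fish by 0.95 (SE 0.15, adjusted p = 0.000877), or 1.94-fold, and the call held in all 47 other settings, with adjusted p values of 0.000361 to 0.0177.

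In midbrain PCDH20 was less separated. It read 8.43, 8.81 and 9.15 (lowest, median, highest) over the domesticated arrays, against 8.01, 8.32 and 8.89 over the wild ones, so the groups overlapped. The difference was 0.43 (SE 0.14, adjusted p = 0.183). Whether the domesticated-wild difference of PCDH20 was itself unlike between the regions was tested and did not pass (0.52, SE 0.21, unadjusted p = 0.0202, adjusted p = 0.999).

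The next members by p in telencephalon were celsr1b (0.40, SE 0.12, adjusted p = 0.0792) and pcdh8 (0.45, SE 0.17, adjusted p = 0.175). celsr1b read 10.23, 10.67 and 10.87 in domesticated fish, against 9.48, 10.27 and 10.58 in wild fish, with overlap. pcdh8, or paraxial protocadherin, was higher in Scientific Hatchery, at 5.63 to 6.18, than in Transgenic Mosaic 1, at 5.12 to 5.44, with the wild arrays at 4.99 to 5.57. The median domesticated-wild difference in telencephalon was -0.02 over the members and -0.01 over all genes.

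In midbrain 0 members passed in limma (against 0.786% of all genes), and 6 (15%, against 11.4%) had an unadjusted p under 0.05. The smallest p values belonged to cdh27 (0.61, SE 0.18, adjusted p = 0.117), pcdh2ab8 (0.36, SE 0.11, adjusted p = 0.144) and dchs1a (-0.41, SE 0.13, adjusted p = 0.163). pcdh2ab8, a clustered protocadherin, read 9.93, 10.06 and 10.33 in domesticated fish, against 9.44, 9.73 and 9.998 in wild fish. dchs1a read 7.56 to 7.67 on the 4 Transgenic Mosaic 1 arrays and 7.90 to 8.36 on the 4 Scientific Hatchery arrays, against 8.23 to 8.37 in Nadia and 7.77 to 8.41 in Pargana North. The low values of dchs1a thus lay in Transgenic Mosaic 1, whose 4 arrays were below the other 12. For the difference of the domestication contrast between regions, 0 members passed (against 0.0192% of all genes) and 3 (7.5%, against 4.32%) had an unadjusted p under 0.05: cdh27, PCDH20 and pcdh2ab8.

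**Figure D4:**
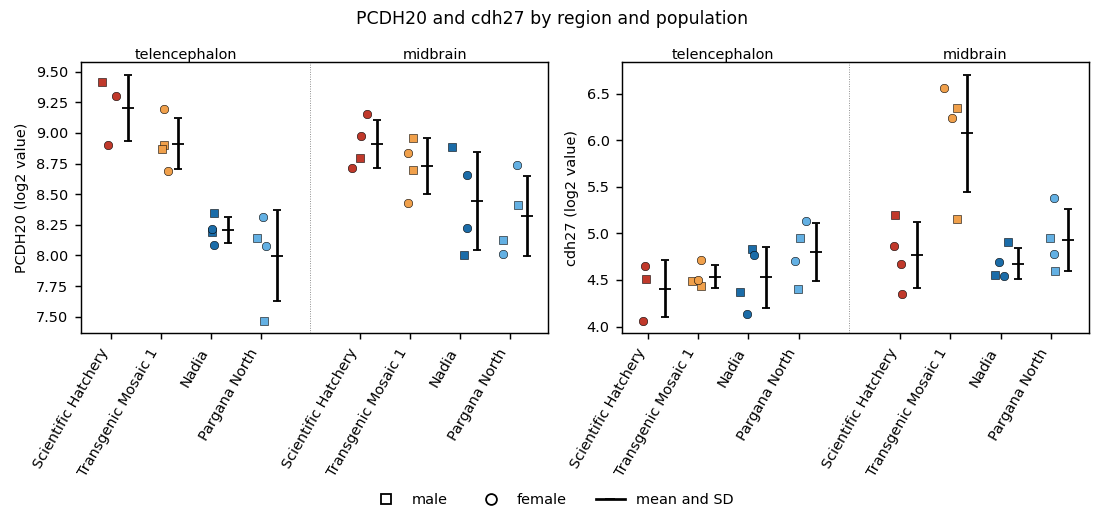
PCDH20 (left) and cdh27 (right) on each array (log2, vertical axes) by region and population, domesticated populations left of wild ones, squares male and circles female, with the mean and SD of each group. In telencephalon all domesticated PCDH20 values lie above all wild ones, and in midbrain 3 of 4 Transgenic Mosaic 1 values of cdh27 lie above every other array.

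Among the 4 populations taken separately, an F test found 1 member in each region. In telencephalon (2.5%, against 6.44% of all genes) it was again PCDH20 (F = 13.9, adjusted p = 0.00198). In midbrain (2.5%, against 3.29%) it was cdh27 (F = 13.7, adjusted p = 0.00309). cdh27 read 5.15, 6.35, 6.56 and 6.24 on the Transgenic Mosaic 1 midbrain arrays, against 4.34 to 5.39 on the other 12. The male M99 was within the range of the others, and the remaining Transgenic Mosaic 1 arrays were above it. In telencephalon the same population had cdh27 at 4.44 to 4.72, inside the span of 4.06 to 5.13 over the other arrays.

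The region difference of cdh27 was correspondingly -1.54 in Transgenic Mosaic 1 and -0.13 to -0.34 in the other 3 populations, and without Transgenic Mosaic 1 it was -0.22 and did not pass (adjusted p = 0.222). Region differences were tested for inequality among populations as well: 0 members passed (against 0.0256% of all genes) and 2 (5%, against 3.83%) had an unadjusted p under 0.05, cdh27 and cdh18a. For cdh27 the adjusted p was 0.695, and 0.0403 without M99. cdh27 is 1 of 7 members, with CDH15, CDHR1, CDH17, cdh26.2, cdh31 and pcdh8, whose mean lies among the dimmest 25% of genes; with those genes left out, 33 members remained.

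Between the sexes, 0 members passed in limma in telencephalon (against 0.032% of all genes) or in midbrain (against 0.00639%). Unadjusted p values under 0.05 were found for 2 members in telencephalon (5%, against 10.7%) and 0 in midbrain (against 4.13%). CELSR3, an axon guidance gene, read 11.96, 12.64 and 12.90 in telencephalon of males, against 12.71, 12.87 and 12.99 in females. The male values spread further down and overlapped those of females, with a difference of -0.29 (SE 0.10, adjusted p = 0.345) that was -0.19 without the male T99. cdh26.1, a homolog of an epithelial cadherin of mammals, read 5.60, 6.47 and 7.86 in males, against 6.68, 7.22 and 8.24 in females (-0.77, SE 0.34, adjusted p = 0.434), and CELSR1 differed by -0.39 (SE 0.19, adjusted p = 0.475), which was -0.16 without T99.

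Male minus female values were below 0 for 30 of the 40 members in telencephalon, with a median of -0.09 against -0.00134 over all genes, and for 23 in midbrain, with a median of -0.01 against 0.01. In midbrain the smallest p belonged to CLSTN2 (ENSDARG00000060638), at 0.23 (SE 0.14), and the differences ran from -0.42 for cdh26.1 up to that value. Leaving out both arrays of Pargana North 21 left the counts at 0 for both regions.

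**Figure D5:**
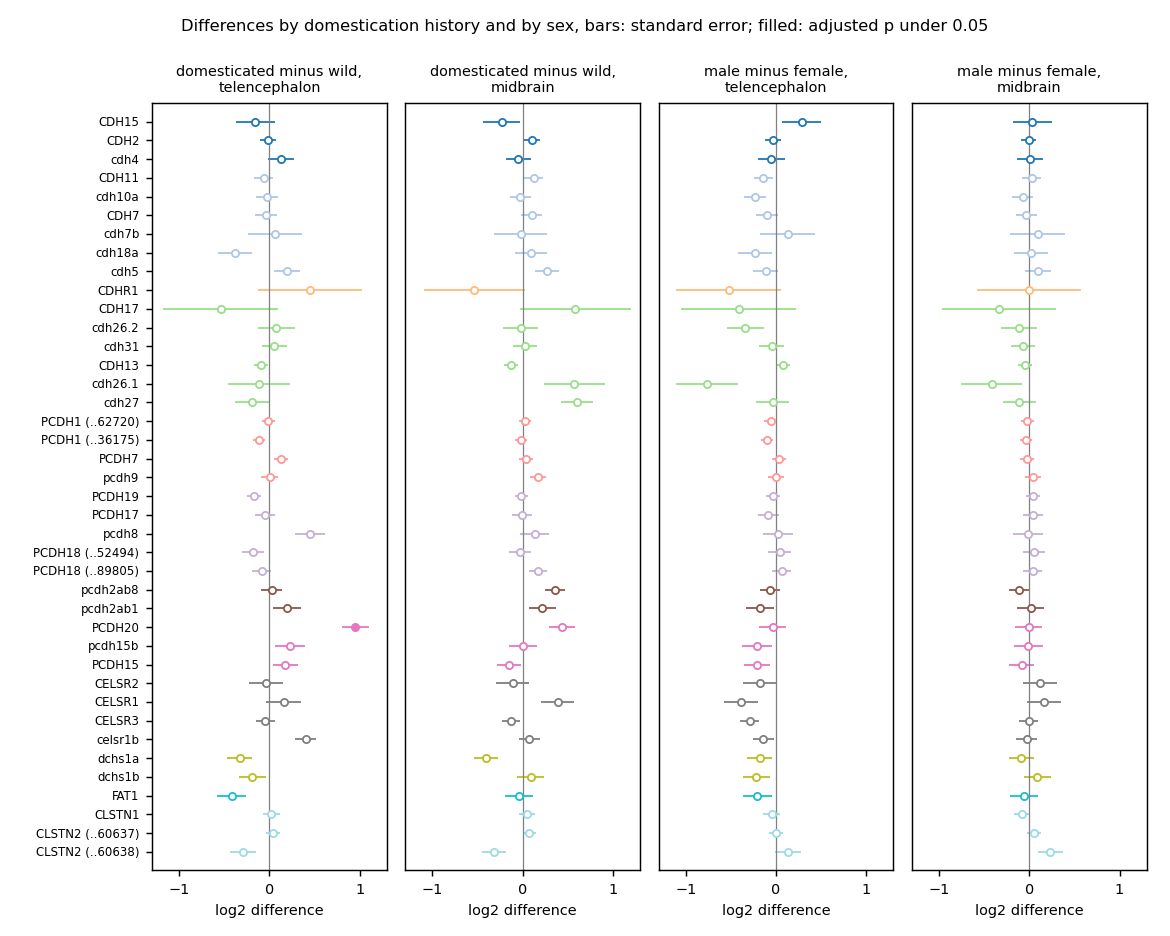
Differences between domesticated and wild fish and between males and females in each region (log2, horizontal axes) for the 40 genes, coloured by family, with bars for the standard error; filled points passed an adjusted p of 0.05. PCDH20 in telencephalon is the only filled point.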

How the data were processed

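The values are the deposited log2 intensities of 1-colour NimbleGen arrays, made by the authors with RMA; the submitters' processing notes also name genome build Zv9. That the scale is log2 follows from the values, which is not stated elsewhere. RNA came from Trizol extracts of individual samples and was copied with random primers, as the labels' protocols state. 1 row without a gene (0.00639% of rows) was left out, and symbols came from an Ensembl table (13251 genes matched). No probe sequences or scanner files were used. limma 3.58.1 in R 4.3.3 was fitted to all 15648 genes with a mean per region and population and a sex term per region (21 residual degrees of freedom, prior 2.92). Benjamini-Hochberg adjustment ran over all genes of a comparison, with a threshold of 0.05. No batch is given in the sources used here. The number of arrays limits the precision.

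The members, families, partner and marker lists were chosen with earlier results of these data known. All 40 members are named for the region difference, whether called or not. In other comparisons the named members are the called ones and those with the smallest p. Up to 4 called genes per list are named. DIO2, further partners and single arrays such as T99 and T140 are named outside these rules, after their values were seen. CDH17 and CDHR1 were described array by array for the same reason. Alternatives were a filter on dim genes, moderation, array weights, no sex term, separate regions, a threshold of 0.01, other scalings, averaged symbols, a replicate block, and leaving out each population and array. Those added after seeing the data left out the 3 telencephalon arrays that correlate least, both Pargana North 21 arrays, or the 4 arrays highest in retina markers. The fit was also run on simulated data with known changes and independent noise on each array. The simulation held no correlation between same-numbered arrays and no outlying arrays, so it does not test the fit for these.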

Additional observations from a re-analysis of the deposited data

Results flagged for a closer look

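In groups of 4 arrays, 23 of 280 sets of values held 1 array far from the other 3 by Dixon's criterion, which chance meets in about 1 of 20 groups. The farthest were CDH17 on M119 (11.15, the others at 4.62 to 5.10) and CDHR1 on T109 (10.43, the others at 4.58 to 5.15). On M119 cdh31 was also high, at 5.61, against 4.47 to 4.61. On T109 PCDH15 was high as well, at 10.49. T99 of Transgenic Mosaic 1 was low for CELSR2 (11.48, the others at 12.69 to 12.92) and for CELSR3 (11.96, the others at 12.71 to 12.86). T12 of that population was high for PCDH1 (ENSDARG00000036175), at 13.97, and for CLSTN2 (ENSDARG00000060638), at 9.08. Its midbrain array M12 was low for CDH2 (13.68), M109 was high for PCDH19 (12.20) and M63 was high for dchs1b (10.74).

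Among the Nadia arrays, T130 was high for CDH11 (11.86) and M98 low for CDH7 (12.38). T106 was low for cdh26.2 (5.41) and for PCDH15 (9.84), and M7 was low for PCDH17 (12.74). In Pargana North, T21 was high for cdh18a (9.21), and T140 was low for cdh26.2 (5.18) and for dchs1b (10.44). In Scientific Hatchery midbrain, M57 was low for cdh7b (6.65), M47 was low for cdh18a (8.84) and for dchs1b (10.22), and M123 was high for CDHR1 (6.06). In all, 12 of the 23 lay below their group.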

How the results depend on the processing

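The number of members called was recomputed under 17 settings besides leaving out each of the 31 arrays. The region difference gave 16 to 22 called members, and 18 to 21 when 1 array was left out, against 19. Of those 19, 15 passed in all 47 settings of the gene-wise check; PCDH15, PCDH1 (ENSDARG00000062720), cdh7b and cdh27 did not. Arrays shifted to the same median gave 9 higher and 13 lower members, and quantile normalization 7 and 13, against 5 and 14, with the median of all genes at 0.07 and 0.05 against 0.01. The count for domesticated against wild in telencephalon was 1 to 2 without 1 array: celsr1b was added without T99 or T85, FAT1 without T98 and dchs1a without T12. In midbrain it was 0 to 1, cdh27 being added without M99. It was also 3 with array weights, 1 without Scientific Hatchery and 1 without the 3 telencephalon arrays that correlate least. Among populations the telencephalon count was 1 to 2 without 1 array (2 without T99, T85, T12 or M99) and 2 without those 3 arrays. The midbrain count was 1 to 2 without 1 array (2 without T99, T12 or T109), 0 without the dimmest 25% of genes, 3 with array weights, 2 with each region alone, 0 without Transgenic Mosaic 1 and 3 without those 3 arrays. Inequality of the region difference gave 0 to 1 without 1 array, cdh27 passing without M99. The domesticated-wild difference of cdh27 in midbrain reversed to -0.0115 without Transgenic Mosaic 1, since the other domesticated population alone then remains. The member called among populations in midbrain, cdh27, is itself left out with the dimmest 25% of genes. Without Transgenic Mosaic 1 it did not pass the F test (adjusted p = 0.83). The cause of the other changes was not tested. The sexes stayed at 0 in every setting run.

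The numbers in the labels occur in both regions for 15 arrays, but no source says that they mark a fish. Same-numbered arrays had residuals correlating at 0.052 to 0.524 (median 0.397), over 0.1 for 13 of 15, and 12 of 15 telencephalon arrays correlated best with their own number. With the number as a replicate block the region difference called 21 members (random, correlation 0.227) or 20 (fixed). The random block kept all 19 and added CDH17 and pcdh2ab8, and the fixed block lost PCDH15 and added CDH17 and cdh31. No other count changed.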
